A study of Homo sapiens with 4 samples.

Results

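The stemness of T24 cells was examined through 10 genes, chosen by name from the 60623 genes of the deposited table: CD44, PROM1, SOX2, NANOG, POU5F1, SOX9, SOX4, KLF4, KLF5 and MYC. CD44, SOX2 and NANOG are stem cell markers that the study examined, together with ALDH1A3, and ALDH1A3 is therefore given beside them. T24 is a line of established human bladder carcinoma cells, grown here in RPMI medium with fetal calf serum, and RNA was sequenced from control cells (2 libraries) and from cells that overexpress CBX7 (another 2). For overexpression the study placed full-length CBX7 in a FLAG-tagged expression vector; the control cells are not described further in the labels, and nothing states that the libraries of a group came from separate cultures. The p-values therefore measure the spread between these libraries, which may be technical. Which of the 10 genes T24 cells transcribe at all was asked first, and then whether the detected ones differed with CBX7.

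CBX7 is a chromobox protein of the Polycomb repressive complex PRC1, which binds methylated histone H3 and keeps genes silent, and it is known in embryonic stem cells as a Polycomb component that maintains pluripotency. SOX2, NANOG and POU5F1 (OCT4) are the core transcription factors of pluripotent cells, whereas KLF4 and MYC are used with POU5F1 and SOX2 to reprogram differentiated cells. CD44, the receptor for the matrix polysaccharide hyaluronan, and PROM1 (CD133), a pentaspan membrane protein, are surface markers by which stem-like cells are sorted from carcinomas. SOX9, SOX4 and KLF5 are transcription factors of epithelial progenitors, and CD44 marks basal cells in normal urothelium.

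Counts over the limit of detection were found for 7 of the 10 genes and 3 were not detected. CD44, MYC, SOX9, KLF5, KLF4, POU5F1 and SOX4 each had over 3 counts in all 4 libraries, which is the limit that a count of 0 allows, whereas PROM1, NANOG and SOX2 were at or under it in all 4. Over the whole table, 15407 of 60623 genes had over 3 counts in all 4 libraries. The counts of POU5F1, which overlaps an abundant gene and has near copies, cannot be assigned to it with certainty. None of the 7 detected genes passed an adjusted p of 0.05 between CBX7-overexpressing and control cells in the quasi-likelihood test of edgeR, adjusted by Benjamini-Hochberg across 14862 genes, and 1 of them, SOX4, had an unadjusted p under 0.05. By comparison, 0.0202% of the genes tested (3 genes) passed the adjusted threshold and 4.74% (705 genes) the unadjusted one.

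The promoters of 4 of these genes are shown because they span the range of levels: SOX2 and NANOG were not detected, CD44 was the most abundant of the 10, and SOX4 had the lowest p-value. Each is 1 RefSeq window of 300 bases on the plus strand of GRCh38.p14, from 250 bases before to 50 bases after the start of a transcript, with CG dinucleotides in capitals. CG dinucleotides are the sites of DNA methylation in mammals, and promoters rich in them are typical targets of Polycomb complexes. The windows lie at chr3:181711675-181711974 (SOX2), chr12:7789152-7789451 (NANOG), chr11:35138921-35139220 (CD44) and chr6:21593501-21593800 (SOX4).
SOX2: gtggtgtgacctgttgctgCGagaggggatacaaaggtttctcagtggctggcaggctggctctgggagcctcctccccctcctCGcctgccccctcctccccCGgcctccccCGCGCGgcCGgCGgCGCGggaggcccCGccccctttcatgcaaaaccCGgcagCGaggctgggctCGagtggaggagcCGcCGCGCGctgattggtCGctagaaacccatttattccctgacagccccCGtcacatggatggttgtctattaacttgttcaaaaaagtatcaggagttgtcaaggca
NANOG: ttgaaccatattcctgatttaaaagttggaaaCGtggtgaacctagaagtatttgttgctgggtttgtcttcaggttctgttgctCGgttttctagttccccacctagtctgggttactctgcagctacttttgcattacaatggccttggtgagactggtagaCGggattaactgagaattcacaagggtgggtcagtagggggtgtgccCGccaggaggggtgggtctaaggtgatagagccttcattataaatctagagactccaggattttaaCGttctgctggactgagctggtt
CD44: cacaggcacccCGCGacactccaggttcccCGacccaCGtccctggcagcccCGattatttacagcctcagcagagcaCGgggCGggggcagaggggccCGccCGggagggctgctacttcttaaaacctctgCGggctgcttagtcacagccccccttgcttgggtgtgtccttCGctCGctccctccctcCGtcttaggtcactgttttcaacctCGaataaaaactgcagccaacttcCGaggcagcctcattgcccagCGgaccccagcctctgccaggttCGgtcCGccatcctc
SOX4: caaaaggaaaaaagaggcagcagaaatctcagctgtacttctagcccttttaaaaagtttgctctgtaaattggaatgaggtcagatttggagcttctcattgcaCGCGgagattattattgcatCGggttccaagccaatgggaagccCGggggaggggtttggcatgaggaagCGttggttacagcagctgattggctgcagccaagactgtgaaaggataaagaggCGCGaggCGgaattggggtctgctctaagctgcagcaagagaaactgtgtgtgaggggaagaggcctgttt

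The SOX2 window held 20 CG and the CD44 window 18, whereas the NANOG window held 5 and the SOX4 window 8. The median of 35116 RefSeq windows was 14, and 41.2% of them held at least as many CG as SOX2, 44.5% as many as CD44, 70.4% as many as NANOG and 60.7% as many as SOX4. The starts that RefSeq gives for NANOG, CD44 and SOX4 lie inside the GENCODE genes, downstream of their first bases, so the annotations place these starts differently and the windows hold for the RefSeq starts alone. Windows were matched for 7 of the 10 genes, and the others held 33 CG (KLF4), 4 and 37 CG (KLF5, which has a pair of windows) and 6 to 32 CG (PROM1, which has 4 windows). On both strands, the SOX2, CD44 and KLF4 windows, a window of KLF5 and some of PROM1 held the GC box GGGCGG, which 45.0% of all windows held. The NANOG window and the other window of KLF5, a transcribed gene, held the SOX core ACAATG (10.8% of all windows) and TATAAA (11.5%), and the KLF4 window held the E-box CACGTG (7.26%), while the SOX4 window held none of these 4 motifs. No window of the 7 genes held the octamer ATGCAAAT in these exact letters (1.77% of all windows). GGGCGG and CACGTG each contain a CG that is also counted above, and a match of letters is a description only.

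Abundances of different genes were compared as TPM (relative transcript abundance, scaled by gene length), and the same gene was compared between libraries as CPM (counts scaled by TMM and by library total). Among 26229 genes with any TPM, the median level was 1.17 TPM. CD44 ranked 242 of these by its mean over the 4 libraries, MYC 1741, SOX9 4346, KLF5 7912, KLF4 8877, POU5F1 9757 and SOX4 12161. The mean levels thus ran from 533 TPM for CD44 through 80.8 for MYC, 29.7 for SOX9, 10.4 for KLF5, 7.67 for KLF4 and 5.52 for POU5F1 to 1.90 TPM for SOX4.

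**Figure D1:**
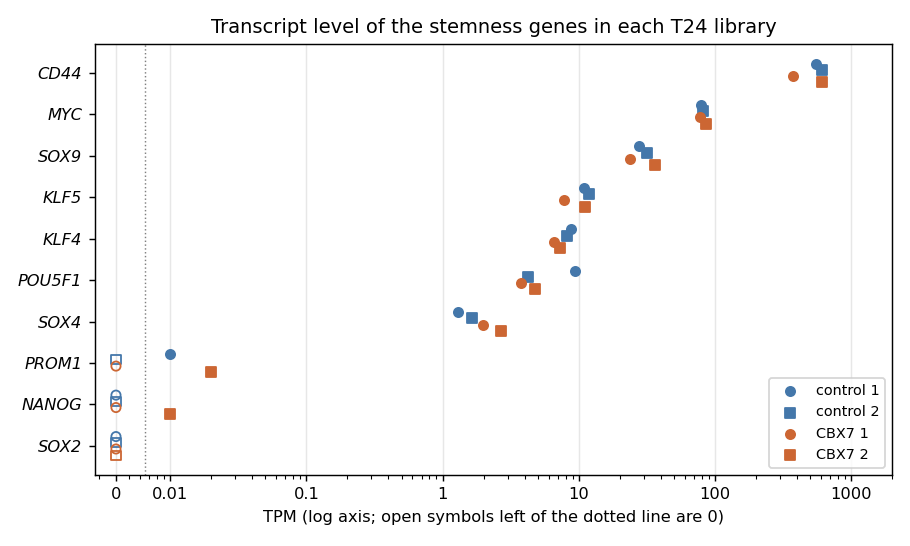
Transcript level of each of the 10 genes in each library, in TPM on a log axis, with open symbols for values of 0; circles are replicate 1, squares replicate 2, blue control and orange CBX7. CD44 lay between 375 and 606 TPM and SOX4 between 1.29 and 2.70 TPM, whereas PROM1, NANOG and SOX2 did not exceed 0.02 TPM in any library.

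The order of CD44, MYC and SOX9 was separated by more than the spread of the libraries. CD44 was 6.60 times MYC in mean TPM, MYC 2.72 times SOX9 and SOX9 2.87 times KLF5, and the ranges over the 4 libraries did not overlap in any of these pairs. KLF5 exceeded KLF4 in 4 of 4 libraries, but their ranges overlapped. KLF4 exceeded POU5F1 in 3 of 4 libraries and was lower in control 1, so the order of these neighbours did not exceed their spread. POU5F1 exceeded SOX4 in 4 of 4 libraries.

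Among the surface markers, CD44 and PROM1 were at opposite ends. CD44 (ENSG00000026508, chromosome 11 of GRCh38 from 35138870 to 35232402, plus strand) had 19022 and 16930 counts in the control libraries and 19052 and 18712 counts in the CBX7 libraries. In CPM these were 797 and 806 in control cells against 789 and 838 in CBX7 cells. The CBX7 libraries lay on either side of the control libraries, so the groups overlapped. The log2 fold change was 0.02 (95% interval −0.28 to 0.32), with an adjusted p of 0.980 in edgeR, so the interval reached from a level 0.822 times to 1.25 times that of control cells. In TPM, CD44 was 548 and 605 in control cells against 375 and 606 in CBX7 cells, with CBX7 replicate 1 below the other 3 libraries. With each library scaled to its median gene, the number of counts behind 1 TPM of CD44 differed 1.27-fold between libraries. This factor was larger than in 79.2% of 14860 genes tested, over which the median factor was 1.09. A limma test on log2(TPM + 1) gave a log2 fold change of −0.27 (adjusted p = 0.942), opposite in sign to the count test, and its sign in edgeR was also negative without CBX7 replicate 2 (−0.03).

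PROM1 (ENSG00000007062, chromosome 4 from 15963076 to 16084378, minus strand) had 1 count in control 1, 1 in CBX7 replicate 2 and 0 in the other two libraries. At the depth of these libraries, 20800910 to 25135488 counts, the limit of 3 counts lies between 0.119 and 0.144 CPM, and it covers counting error only. A lower level of PROM1 with CBX7 was not detectable at this depth, and both CBX7 libraries stayed under the limit, so a fold change is left out. The other prominin, PROM2, a membrane protein of epithelial protrusions, had 0.684 ± 0.159 CPM in control and 1.65 ± 0.122 CPM in CBX7 cells (SD, n = 2 libraries each), with a log2 fold change of 1.26 (SE 0.35) and an adjusted p of 0.734 (edgeR).

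Of the core pluripotency factors, SOX2 (ENSG00000181449, chromosome 3 from 181711924 to 181714436, plus strand) had 0 counts in all 4 libraries. SOX2-OT, the noncoding gene in which SOX2 lies, had 3 counts in control 2 and 0 elsewhere. NANOG (ENSG00000111704, chromosome 12 from 7787794 to 7799141, plus strand) had 1 count in CBX7 replicate 2 and 0 in the others. Its processed copy NANOGP8, with which NANOG shares 622 of 5134 stretches of 50 bases, had 0 counts in all 4 libraries, and the tandem copy NANOGP1 had 1 count in control 1. A lower level of SOX2 or NANOG with CBX7 was not detectable at this depth. Of 15 copies and overlapping or neighbouring transcripts of the 10 genes that were looked up by name, 14 were in the table, of which 12 were at or under 3 counts in all 4 libraries.

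POU5F1 (ENSG00000204531, chromosome 6 from 31164337 to 31180731, minus strand) was the only core pluripotency factor with counts over the limit, at 86 and 54.1 in control cells against 67.0 and 40 in CBX7 cells. These were 3.60 and 2.57 CPM in control cells against 2.77 and 1.79 CPM in CBX7 cells, and the groups overlapped. The log2 fold change was −0.44 (95% interval −1.26 to 0.39), with an adjusted p of 0.951 in edgeR, so both a level 0.417 times that of control cells and one 1.31 times it lay within the interval. It was −0.79 without CBX7 replicate 1 (unadjusted p = 0.0243, adjusted p = 0.378, edgeR), −0.16 without CBX7 replicate 2, −0.17 without control 1 and −0.66 without control 2. The level of POU5F1 is uncertain, because 39.4% of the stretches of 50 bases in its longest coding transcript occur in transcripts of other genes, 161 in all. The copies POU5F1B, POU5F1P3 and POU5F1P4 shared the most with it, with 404, 284 and 248 such stretches, and had at most 2.01 counts in any library. TCF19, a protein-coding gene on the opposite strand that overlaps POU5F1, had 2480 and 2112 counts in control cells against 2330 and 2018 in CBX7 cells. Whether the library kit kept the strand is not stated, and without strand the reads of overlapping genes cannot be told apart. With each library scaled to its median gene, the counts behind 1 TPM of POU5F1 differed 1.65-fold between libraries, a larger factor than in 93.1% of genes tested. The TPM of POU5F1 was 9.35 and 4.26 in control cells against 3.73 and 4.74 in CBX7 cells.

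SOX4 showed the largest difference among the 7 genes. SOX4 (ENSG00000124766, chromosome 6 from 21592768 to 21598619, plus strand), a SOX factor of progenitors and of epithelial-mesenchymal transition, had 113 and 120 counts in control cells against 205 and 208 counts in CBX7 cells. In CPM these were 4.74 and 5.72 in control cells against 8.49 and 9.31 in CBX7 cells. The CBX7 libraries were both higher than the controls, in CPM as in TPM (1.29 and 1.63 against 1.97 and 2.70). The mean was 5.23 ± 0.693 CPM in control and 8.90 ± 0.581 CPM in CBX7 cells (SD, n = 2 libraries each). The log2 fold change was 0.77 (SE 0.19, 95% interval 0.30 to 1.24), or 1.70-fold, with an unadjusted p of 0.00747 and an adjusted p of 0.597 in edgeR. SOX4 thus did not pass the test over all genes. It ranked 185 of 14862 by p-value, and 3.01% of the genes tested had a log2 fold change at least as large. With DESeq2 the adjusted p was 0.957. When 1 library was left out, with the lone library of its group assumed to vary like the other group, the adjusted p was 0.00162 without CBX7 replicate 1 (2.59% of genes passed) and 0.00234 without CBX7 replicate 2 (35.5% of genes passed), whereas it was 0.999 without control 1 and 1.00 without control 2 (edgeR). SOX4 has 1 annotated transcript, and 2.09% of its stretches of 50 bases occur in another gene.

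SOX9 (ENSG00000125398, chromosome 17 from 72121020 to 72126420, plus strand), a SOX factor of progenitors in several epithelia and in cartilage, had 1913 and 1838 counts in control cells against 1973 and 2233 counts in CBX7 cells. In CPM these were 80.2 and 87.5 in control cells against 81.7 and 99.9 in CBX7 cells, and CBX7 replicate 1 lay between the controls. The log2 fold change was 0.12 (95% interval −0.27 to 0.51), with an adjusted p of 0.951 in edgeR. Without CBX7 replicate 2 it was −0.04, so its sign rested on that library.

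The Krüppel-like factors KLF4 and KLF5 lay at similar levels and differed in the same direction. KLF5 (ENSG00000102554, chromosome 13 from 73054976 to 73077542, plus strand), a factor of proliferating epithelial cells, had 599 and 580 counts in control cells against 524 and 548 in CBX7 cells, or 25.1 and 27.6 CPM against 21.7 and 24.5 CPM. KLF4 (ENSG00000136826, chromosome 9 from 107484852 to 107490482, minus strand), a factor of epithelial differentiation and of reprogramming, had 390 and 302 counts in control cells against 342 and 289 in CBX7 cells, or 16.3 and 14.4 CPM against 14.2 and 12.9 CPM. For both genes the CBX7 libraries lay under the control libraries, by less than 1 CPM between the nearest libraries, and in TPM the groups of KLF5 overlapped (10.81 and 11.88 against 7.80 and 10.99). The log2 fold change of KLF5 was −0.19 (95% interval −0.55 to 0.17) and that of KLF4 −0.18 (95% interval −0.57 to 0.20), and the adjusted p was 0.951 for each (edgeR). With 1 library left out, KLF5 ran from −0.28 without CBX7 replicate 2 to −0.10 without CBX7 replicate 1, and KLF4 from −0.27 without control 2 to −0.09 without control 1.

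MYC, the transcription factor that drives growth and ribosome production, was the second most abundant of the 10 genes. MYC (ENSG00000136997, chromosome 8, plus strand) had 2529 and 2225 counts in control cells against 3114 and 2477 counts in CBX7 cells. The control libraries were close together, both at 106 CPM, and the CBX7 libraries lay above them at 129 and 111 CPM. The log2 fold change was 0.18 (95% interval −0.17 to 0.53), with an adjusted p of 0.951 in edgeR. CBX7 replicate 1 set most of it: the adjusted p was 0.0276 without CBX7 replicate 2, a setting in which 35.5% of all genes passed, at a log2 fold change of 0.28 (edgeR), whereas the log2 fold change was 0.07 without CBX7 replicate 1. In TPM the groups overlapped, at 79.2 and 81.3 in control cells against 77.5 and 85.3 in CBX7 cells. MYC is listed with a short length, 1365 bases, and the library of CBX7 replicate 1 differed from that of control 1 along gene length (Spearman −0.63 over 11077 genes, which are not independent, against 0.04 for the replicate 2 libraries, −0.49 for control 1 against control 2 and −0.70 for CBX7 replicate 1 against CBX7 replicate 2). After a correction of each library for its trend with the listed length, the log2 fold change of MYC was 0.05. The same correction gave 0.12 for CD44, 0.13 for SOX9, 0.83 for SOX4, −0.57 for POU5F1, −0.20 for KLF4 and −0.19 for KLF5. The longest coding transcript of MYC has 2366 bases, more than the listed length used. The part of length in the difference of MYC was not tested.

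**Figure D2:**
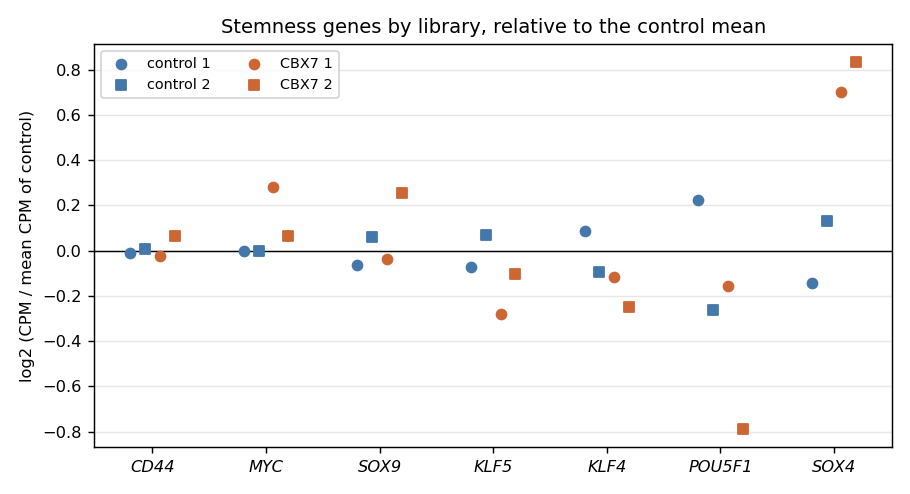
Level of the 7 tested genes in each library as log2 of the CPM over the mean CPM of the control libraries, with symbols as in the plot of TPM. Both CBX7 libraries of SOX4 and MYC lie above both controls, both of KLF5 and KLF4 lie below them, and those of CD44, SOX9 and POU5F1 overlap the controls.

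Of the 7 genes tested, 4 had a positive and 3 a negative log2 fold change, with a median of 0.02 against 0.00 over all 14862 genes. In 2 of the 7 (SOX4 and MYC) the CBX7 libraries were both above the controls, against 15.4% of all genes, and in 2 (KLF5 and KLF4) both below, against 14.8%. At an unadjusted p under 0.05, 1 of the 7 was higher, against 3.42% of all genes, and 0 were lower, against 1.32%. For 1 gene alone, the smallest p that a two-sided exact permutation test of 2 against 2 libraries can reach is 0.333, and the edgeR p-values borrow their spread from all genes. The intervals of CD44, MYC, SOX9, KLF5 and KLF4 did not reach below 0.675 times the level of control cells, the lower end for KLF4.

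**Figure D3:**
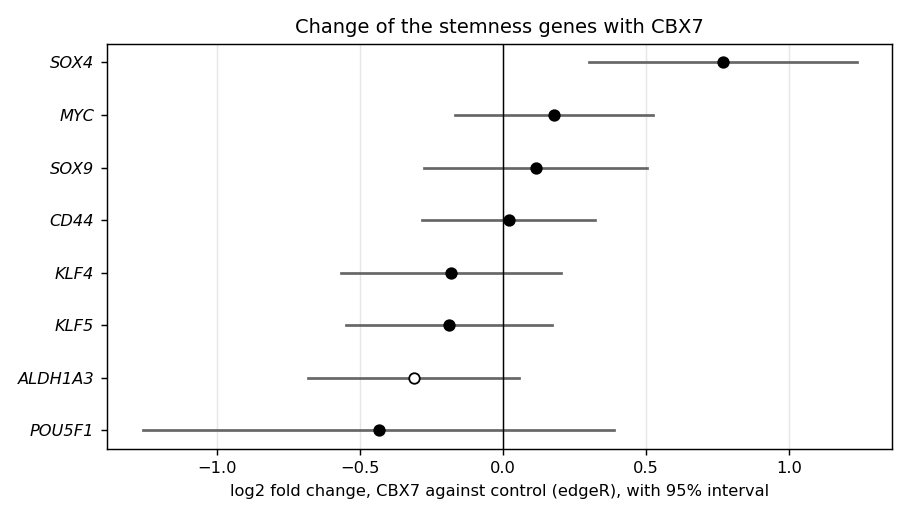
Log2 fold change of each tested gene between CBX7 and control cells (points) with its 95% interval (lines), from edgeR; the open point is ALDH1A3. The interval of SOX4 (0.30 to 1.24) lies above 0 before adjustment for 14862 genes, and the other 7 intervals include 0.

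ALDH1A3, a retinaldehyde dehydrogenase behind the aldehyde dehydrogenase activity by which stem-like cells are sorted, was abundant. ALDH1A3 (ENSG00000184254, chromosome 15 from 100877714 to 100916626, plus strand) had 648 and 686 CPM in control cells against 484 and 590 CPM in CBX7 cells. Both CBX7 libraries lay below both controls, but the log2 fold change of −0.31 (95% interval −0.68 to 0.06) had an adjusted p of 0.951 in edgeR. Without CBX7 replicate 2 the adjusted p was 1.1e-05, at a log2 fold change of −0.46, in the setting in which 35.5% of all genes passed. The antisense gene AC015712.2, which shares 36.1% of the 50-base stretches of ALDH1A3, had 1432 and 1427 counts in control cells against 930 and 1319 in CBX7 cells, so reads of the pair may be split. ALDH1A1 had at most 13 counts in any library, ALDH1L1 had 0.41 TPM, and ALDH1B1, a mitochondrial family member, had 63.0 ± 2.82 CPM in control and 71.6 ± 1.81 CPM in CBX7 cells (SD, n = 2 libraries each; adjusted p = 0.951, edgeR).

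Of 26 further pluripotency genes, 17 were at or under 3 counts in all 4 libraries, among them LIN28A, DPPA2, TDGF1, UTF1 and PRDM14, and 10 had 0 counts throughout. These shares were not above those of the whole table, in which 41871 of 60623 genes were at or under 3 counts in all 4 libraries and 34266 were at 0. Of the 6 tested, 4 had a positive and 2 a negative log2 fold change (median 0.02), and none had an unadjusted p under 0.05. The most abundant were KLF2 (8.64 TPM), the DNA methyltransferase DNMT3B (3.13 TPM) and the telomerase subunit TERT (3.10 TPM). TERT, which is expressed in most carcinomas, had 4.74 ± 0.239 CPM in control and 5.61 ± 0.0869 CPM in CBX7 cells (SD, n = 2 libraries each; adjusted p = 0.951, edgeR).

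Within the SOX family, SOX9 was the most abundant of 19 genes, followed by SOX12 (17.3 TPM), SOX13 (12.3 TPM) and SOX7. The group B1 relatives of SOX2, SOX1 and SOX3, had 0 TPM in all 4 libraries, as SOX2 did. Of the 8 SOX genes tested, 6 had a positive log2 fold change (median 0.14), and SOX18 and SOX4, both higher, had an unadjusted p under 0.05, against 3.42% of all genes. SOX18, a factor of vascular endothelium, had 1.30 and 1.62 CPM in control cells against 5.55 and 3.67 CPM in CBX7 cells, a log2 fold change of 1.66 (SE 0.32) with an adjusted p of 0.399 in edgeR. The endothelial markers PECAM1 and VWF had at most 4 counts in any library, and CDH5 had 13 and 12 counts in control cells against 3 and 7 in CBX7 cells. Of 9 genes that SOX9 acts with or on in hair follicle and cartilage, 3 were tested (MATN3, SOX5 and COL11A2), of which MATN3 was the most abundant at 6.66 TPM and the others were at 0.18 and 0.165 TPM.

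Among 17 KLF genes, 12 were tested, of which 9 had a negative log2 fold change (median −0.19), and none had an unadjusted p under 0.05. KLF4 (−0.182) and KLF5 (−0.190) were the middle genes of these 12, so the median of −0.186 is set by them. Here too CBX7 replicate 1 stood apart, with 118 TPM summed over the family against 155 and 174 TPM in control cells and 169 TPM in CBX7 replicate 2. KLF6 (35.0 TPM), KLF10 (32.3 TPM) and KLF16 (24.3 TPM) exceeded both in mean level. KLF9, a hormone-responsive family member, had the largest difference among those with a mean of at least 50 counts, from 21.0 ± 0.125 CPM in control to 14.9 ± 4.26 CPM in CBX7 cells (SD, n = 2 libraries each; log2 fold change −0.49, adjusted p = 0.951, edgeR). In 3 KLF genes (KLF4, KLF5 and KLF9) both CBX7 libraries lay under both controls, against 14.8% of all genes. KLF12 had a log2 fold change of −0.41 and overlapping groups.

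**Figure D4:**
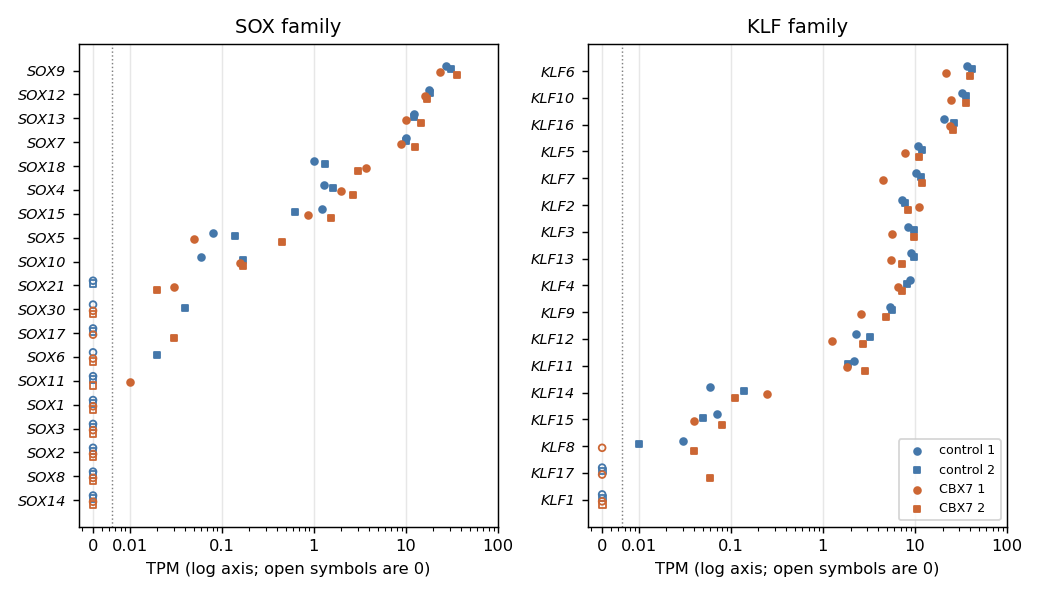
Level of the SOX genes (left) and KLF genes (right) in each library, in TPM on a log axis with open symbols for values of 0; blue is control and orange CBX7. SOX9 leads the SOX family, SOX1, SOX2 and SOX3 are at 0 in all 4 libraries, and KLF5 and KLF4 lie below KLF6, KLF10 and KLF16.

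Of 13 genes in the network of MYC-related factors, 10 had over 3 counts in all 4 libraries, as had 27 of 28 genes that MYC is known to activate. In the whole table this held for 15407 of 60623 genes. In the network of MYC-related factors, MYC was the most abundant (80.8 TPM), followed by its partner MAX (57.7 TPM) and the antagonist MXD3 (48.3 TPM). Of the 10 network genes tested, 5 had a positive and 5 a negative log2 fold change, and none had an unadjusted p under 0.05. The antagonists MXD1 and MXI1 had log2 fold changes of −0.36 and −0.21. The 27 activated genes tested had 21 positive and 6 negative log2 fold changes and a median of 0.18, against 7472 positive and 7390 negative ones over all genes. In 8 of the 27 both CBX7 libraries lay above both controls, against 15.4% of all genes, and none had an unadjusted p under 0.05. Much of the shift lay in CBX7 replicate 1: the nucleolar FBL, for example, was at 168 and 155 CPM in control cells, 232 CPM in CBX7 replicate 1 and 150 CPM in CBX7 replicate 2. Summed over the 28 genes, the level was 11832 and 11941 TPM in control cells against 12334 and 11975 TPM in CBX7 cells. NPM1 and LDHA, the most abundant of them, had log2 fold changes of 0.06 and −0.03, EIF4A1 and HSPE1 of 0.09 and 0.38, and E2F2, a cell cycle factor, had the largest at 0.44 (7.33 ± 0.946 against 9.97 ± 1.22 CPM, SD, n = 2 libraries each; adjusted p = 0.951, edgeR). PVT1, the noncoding gene next to MYC, had 518 and 482 counts in control cells against 671 and 582 in CBX7 cells, a log2 fold change of 0.27 (adjusted p = 0.951, edgeR).

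Hyaluronan synthases, hyaluronidases, linkers and proteases that act with CD44 were tested for 16 of 20 genes, of which 6 had a positive and 10 a negative log2 fold change (median −0.15). Their summed level was 597 TPM in CBX7 replicate 1, below the 858 and 942 TPM of control cells and the 899 TPM of CBX7 replicate 2. The most abundant were MSN (moesin, 219 TPM) and EZR (ezrin, 167 TPM), which link CD44 to actin, and MMP14 (126 TPM), a membrane protease that cleaves CD44. EZR differed by −0.04, MSN by −0.24 and MMP14 by −0.23 on the log2 scale, none with an unadjusted p under 0.05. ESRP2, a splicing factor that promotes the variant exons of CD44, had 2.64 and 2.24 CPM in control cells against 5.01 and 3.85 CPM in CBX7 cells, a log2 fold change of 0.86 (SE 0.25) with an adjusted p of 0.788 in edgeR. CD74, a membrane partner of CD44, had a log2 fold change of 0.63 (adjusted p = 0.951, edgeR). Counts per gene do not separate the spliced forms of CD44, of which the annotation lists 39 transcripts.

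Among 25 markers of carcinoma stem cells in general, 15 were tested, with 9 positive and 6 negative log2 fold changes (median 0.08). RPSA (laminin receptor, 2713 TPM), ALDH1A3 and ALCAM (CD166, 103 TPM) were the most abundant, and KRT5, KRT14 and CEACAM6 had 0 counts in all 4 libraries. NES (nestin), an intermediate filament of neural progenitors, had 3.02 and 1.86 CPM in control cells against 4.84 and 4.07 CPM in CBX7 cells (log2 fold change 0.86, unadjusted p = 0.0312, adjusted p = 0.943, edgeR). NT5E (CD73), an ectonucleotidase, had 132 and 143 CPM against 96.7 and 111 CPM (log2 fold change −0.41, unadjusted p = 0.0297, adjusted p = 0.941, edgeR). The list thus held 1 of 15 genes in each direction at the unadjusted threshold, against 3.42% of all genes higher and 1.32% lower.

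**Figure D5:**
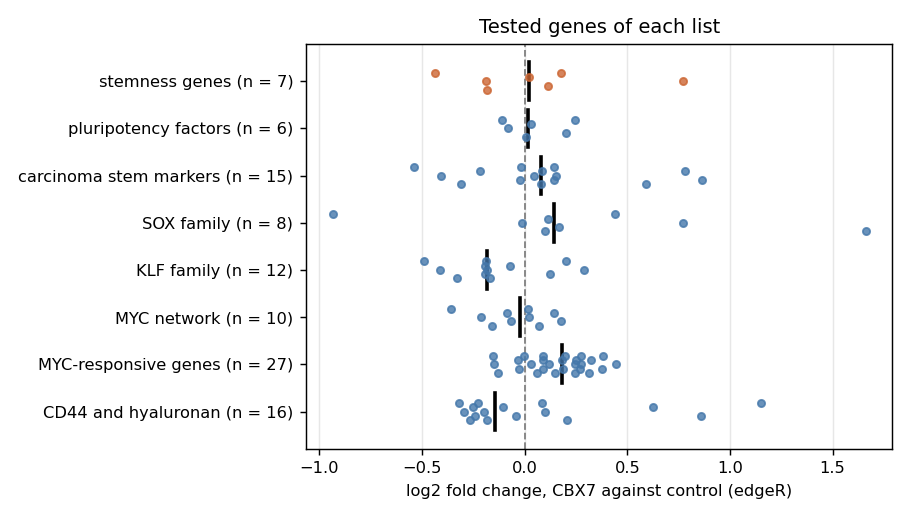
Log2 fold change of every tested gene in the 8 lists plotted (points, edgeR) and the median of each (black bars), for CBX7 against control cells. The plotted medians run from −0.19 for the KLF family to 0.18 for MYC-responsive genes, and none of the genes passed the adjusted threshold. CBX7 replicate 1 differed from control 1 along gene length (Spearman −0.63), and the part of gene length in these medians was not tested.

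By the rule for genes most like SOX4, ANO9, CYP27B1 and EFEMP1 were closest to it in centred log2 CPM over the 4 libraries, out of 11076 genes whose counts averaged 100 or more. Their Euclidean distances to SOX4 were 0.0988, 0.102 and 0.162. ANO9 had 5.78 and 6.29 CPM in control cells against 9.98 and 10.8 CPM in CBX7 cells. With 4 libraries such likeness is a description of these libraries.

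The libraries carried the labelled manipulation and the line's identity in part. CBX7 (ENSG00000100307) had 10.9 and 9.67 CPM in control cells against 1774 and 1595 CPM in CBX7 cells. The epithelial keratins KRT7, KRT18 and KRT8 (900 to 1273 TPM) and vimentin (VIM, 2479 TPM) were abundant, whereas CDH1, the uroplakins, KRT20 and the basal markers KRT5, KRT6A, KRT14 and TP63 had at most 3 counts in any library, so defining markers of differentiated and basal urothelium were at or under the limit of a count of 0. Of the urothelial factors, PPARG (23.9 TPM) and FOXA1 (7.79 TPM) were expressed, and GATA3 had 3 and 4 counts in control cells against 14 and 22 in CBX7 cells (log2 fold change 2.28, adjusted p = 0.602, edgeR). PTPRC and CD3E, which mark blood cells, had at most 1 count in any library, and CD14 had 14 to 29. Beside SOX4, and against 7472 positive and 7390 negative signs over all genes, all 5 epithelial markers tested had positive log2 fold changes (KRT19 1.35, adjusted p = 0.352, edgeR) and all 4 mesenchymal markers negative ones (FN1 −1.03, adjusted p = 0.597, edgeR, then ZEB1 −0.30, CDH2 −0.23 and VIM −0.19); summed over each list, epithelial markers were at 3248 and 3151 TPM in control cells against 3730 and 3351 TPM in CBX7 cells, and mesenchymal markers at 3366 and 3338 against 2499 and 2603 TPM. The groups overlapped for KRT7, KRT8, EPCAM, VIM and ZEB1, and for all of these but VIM CBX7 replicate 2 lay between the controls in CPM. The 5 epithelial markers are listed at 1390 to 1687 bases and the 4 mesenchymal ones at 2154 to 8804 bases. CBX7 replicate 1 differed from control 1 along gene length, and the part of length in these signs was not tested. The part of the markers in the difference of SOX4 was not tested either, and in bulk RNA fewer cells of a kind and less RNA per cell cannot be told apart.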

How the data were processed

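RNA of T24 cells was sequenced on an Illumina HiSeq instrument in 2 control and 2 CBX7-overexpressing libraries. For each gene and library the authors deposited an estimated count (66.9% to 68.6% of values above 0 were whole) and a TPM value, with the length of the gene and group means of TPM. The authors' own comparison is in the deposited table too, as a p-value, an adjusted one, a fold (ratio) and its log2, and none of it was used. The submitters' processing notes name cutadapt 1.9.1, HISAT2 2.0.1, HTSeq 0.6.1, DESeq2 and hg19. Counts that are not whole do not come from plain gene counting with HTSeq, so how the deposited counts were made is not settled, and no coordinates were taken from the table. Coordinates are from GENCODE 29 on GRCh38, in which 58516 of 60623 identifiers (96.5%) were found, and promoter windows are from RefSeq on GRCh38.p14.

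Rounded counts entered edgeR 4.0.16 under R 4.3.3 (filterByExpr, TMM, then glmQLFit and glmQLFTest on condition alone), and p-values were adjusted across the 14862 genes kept by the Benjamini-Hochberg method. Standard errors are the log2 fold change over the square root of F, and intervals use the residual plus prior degrees of freedom. The totals were 20800910 to 25135488 counts, and a gene was called detected above 3 counts. Each member's longest coding transcript was compared with transcripts of all other genes, on both strands, for identical stretches of 50 bases. The test was checked on simulated counts in which 200 genes were changed. These had no trend along gene length and no deviation shared by same-numbered libraries, so the check does not cover such features. Alternatives were RLE and upper-quartile scaling, a filter of 10 counts in each library or none, DESeq2 1.42.0, the newer quasi-likelihood method, a replicate block, a correction for gene length (loess of log2 CPM on log2 length, span 0.3), both together, limma 3.58.1 on log2(TPM + 1) and log2(TPM + 0.1), and each library left out.

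The 10 genes and the lists around them were chosen with earlier results of these data known. Named are the 10 genes, CBX7, ALDH1A3, copies of the 10 genes, of each other list the 3 highest in mean TPM and the 2 with the largest absolute log2 fold change among those with a mean of at least 50 counts, list genes past the adjusted threshold, and the 3 genes nearest to SOX4. Other list genes named (FBL, LIN28A, DPPA2, TDGF1, UTF1, PRDM14, CEACAM6, KRT14, CDH1, EPCAM, KRT20, the uroplakins, SOX1, SOX3, SOX7, ALDH1A1) and overlapping genes were chosen after their values were seen.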

Additional observations from a re-analysis of the deposited data

How the results depend on the processing

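SOX4 was positive under all 16 alternatives, KLF4, KLF5, POU5F1 and ALDH1A3 negative under all 16, and MYC positive under all 16. CD44 turned negative with limma on TPM (−0.272 with a pseudocount of 1, filtered or not, and −0.273 with 0.1), in which the median of all genes lay at −0.0809, −0.0332 and −0.101, and ranged from −0.0251 to 0.067 with each library left out, where SOX9 ranged from −0.0388 to 0.258. SOX4 passed the adjusted threshold with the replicate number as a block (0.772, adjusted p = 0.0156, edgeR) and with the block and the length correction (0.835, adjusted p = 0.000964, edgeR), and ranged from 0.635 to 0.908 with each library left out. Deviations of same-numbered libraries from their group means correlated at 0.44 over 14862 genes. The correlation was 0.64 over the 11077 genes averaging 100 counts or more. Nothing states that the number marks a batch, so what same-numbered libraries share beyond these correlations is not known. ALDH1A3 passed with the block and the length correction (−0.315, adjusted p = 0.0172, edgeR) and ranged from −0.465 to −0.172 with each library left out, and MYC from 0.069 to 0.281. Over the 12 alternatives that kept all libraries, the log2 fold change of SOX4 ran from 0.434 (limma on log2(TPM + 1)) to 0.835. Its adjusted p over these ran from 0.000964 (edgeR) to 0.957 (DESeq2).

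The 3 genes past the adjusted threshold were 265 with no filter (17.7% lower), 67 with DESeq2 (7.46% lower), 361 with the block (25.2% lower), 628 with the block and the length correction (33.6% lower), 2 with limma on log2(TPM + 1), 1 with limma and no filter, and 45 to 5491 with each library left out (5491 without CBX7 replicate 2). Of the genes in the lists, 0 passed in the first test, 3 with no filter (FN1, KRT19 and SOX18), 2 with DESeq2 (FN1 and KRT19), 5 with the block (FN1, GATA3, KRT19, SOX18 and SOX4), 12 with the block and the length correction, and 0 to 54 with each library left out. PROM1, NANOG and SOX2 had at most 1 count in any library, so a lower level with CBX7 could not be measured. Neither CBX7 library rose over 3 counts for any of them.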
